A study of Mus musculus with 7 samples.

Results

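The genes followed here encode 10 splicing regulators: *Nova1* and *Nova2*, *Rbfox1*, *Rbfox2* and *Rbfox3*, *Srrm3* and *Srrm4*, and *Khdrbs2*, *Khdrbs3* and *Qk*. Most are known from neurons, while Rbfox2 is also used outside neurons and Quaking, encoded by *Qk*, in neural progenitors and glia. The 10 genes were chosen by symbol from the 48440 genes of the count table and were read in all 7 libraries. *Nova2* stands there under a second identifier as well, with 0 counts in every library, so 11 rows carried a member's symbol and 10 held counts. Bulk RNA-seq was made from pools of mouse retinas at E16, with 1 library of the Chx10Cre control (WT), 3 of Chx10-Cre;Ptbp1lox/WT (Het) and 3 of Chx10-Cre;Ptbp1lox/lox (KO). All 7 libraries, the control included, therefore carry the Cre transgene. The Cre driver is active in retinal progenitors, so it acts on these cells and on what descends from them. The libraries are pools of retinas, and nothing in the labels says whether pools shared a litter, so p-values measure the spread between pools.

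A nascent transcript can be cut and joined in more than one way, and neurons use exons that other cells leave out. *Ptbp1*, which encodes a polypyrimidine tract binding protein, keeps many of these exons out in progenitors and non-neuronal cells. Nova, Rbfox and the STAR proteins, the family of Khdrbs2, Khdrbs3 and Quaking, act on neuronal exons when they are present. They act either for or against inclusion according to where on the transcript they bind. Srrm3 and Srrm4 promote the inclusion of very short neuronal exons. The question for these genes is whether their own RNA level differed once *Ptbp1* was lost. Counts per gene do not measure which exons were used, and splicing was not analysed here.

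The total of counts on genes ranged from 120593979 to 171117305 per library, and the members held 3047 to 66199 counts in a library, so that counting error was at most 1.81% of a value. Expression is given as CPM (gene counts scaled by TMM library size). KO was compared with Het by edgeR's quasi-likelihood test over 20019 genes, and a gene was called at a Benjamini-Hochberg adjusted p below 0.05 with an absolute log2 fold change above 0.263, a factor of 1.2. *Ptbp1* itself was at 381 CPM in WT, at 210, 219 and 234 CPM across Het1, Het2 and Het3 and at 27.9, 6.04 and 46.9 CPM across KO1, KO2 and KO3. Markers of retina (*Rax*, *Pax6*, *Six3*, *Six6*, *Lhx2*, *Sox2*) were all present in the 7 libraries. They summed to 1968 CPM in WT, 1885 to 1960 CPM in Het and 1835 to 1850 CPM in KO. Of these 6 genes, 5 had a negative log2 fold change (median -0.06), and 0 were called (7.22% of all genes tested). Genes of skeletal muscle summed to 293 CPM in Het1 and to 8.58 to 11.3 CPM in the other libraries, and genes of pigmented cells to 532 CPM in Het1 and to 22.3 to 65.8 CPM elsewhere. Erythroid genes ranged from 188 to 527 CPM in Het and from 24.1 to 297 CPM in KO, lens genes from 23.7 to 78.6 and from 2.10 to 45.4 CPM, and microglial genes from 50.5 to 71.5 and from 72.3 to 98.1 CPM. Of 8 vascular genes, 6 had a negative log2 fold change (median -1.30) with *Pdgfrb* called lower, while *Kdr*, which held most of their summed CPM, was called higher (363 to 376 CPM in Het and 468 to 562 CPM in KO). In bulk samples, fewer cells of a type and less RNA per cell cannot be told apart.

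Of the 10 regulators, *Nova2* and *Khdrbs2* were lower in KO than in Het, both by about the size of the fold limit, and 0 were called higher. On average KO held 79.5% of the Het level of *Nova2* and 80.0% of that of *Khdrbs2*. Over all genes tested, 7.22% were called, 3.21% lower and 4.01% higher. The median log2 fold change of the members was 0.02, against -0.0047 over all genes tested. Without a limit on adjusted p, *Nova1*, *Rbfox1* and *Qk* had an unadjusted edgeR p below 0.05 with a higher mean in KO, as part of 5 members in all (29.7% of genes tested), and DESeq2, which called 10.3% of genes, also called 0 members higher. In the other 8 members, the 95% interval of the log2 fold change lay wholly inside the fold limit of 0.263 in either direction, as it did in 35.7% of all genes tested and in 72.8% of the 8225 genes above 20 CPM on average.

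**Figure D1:**
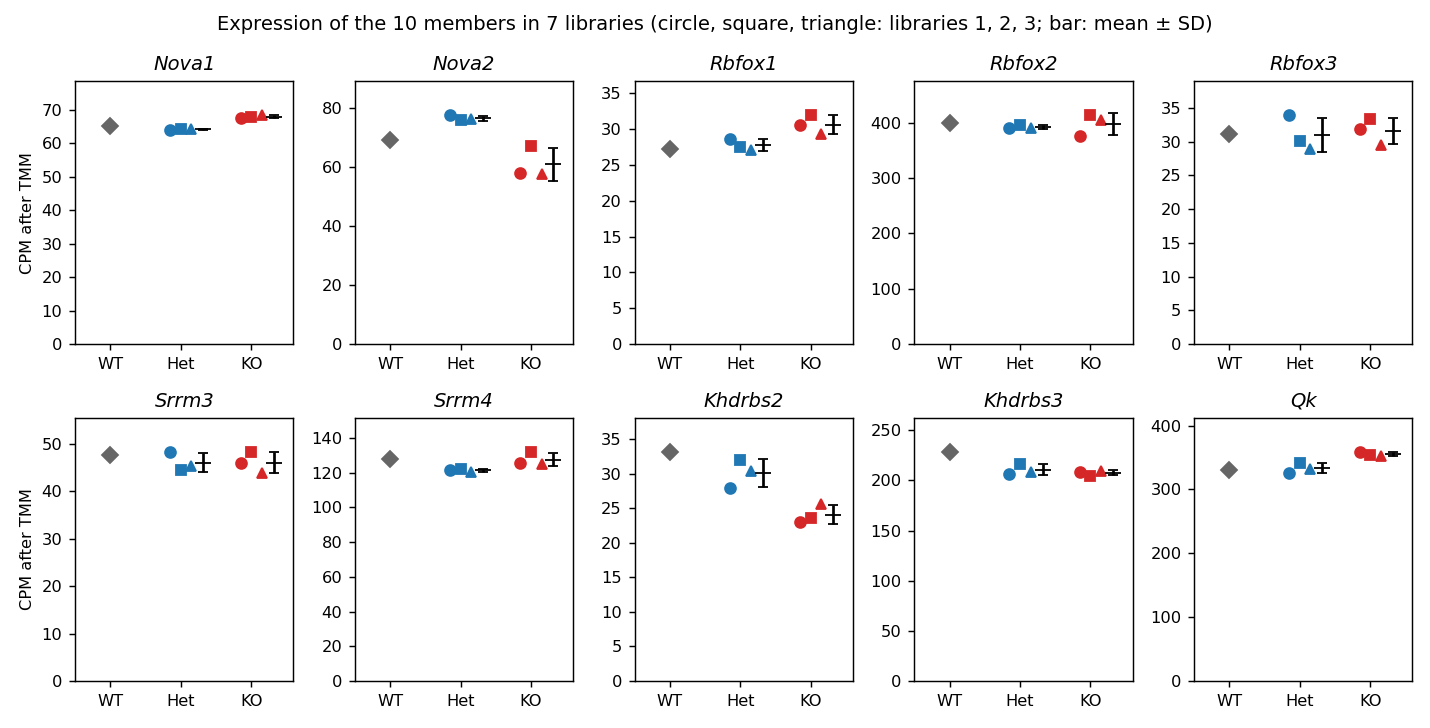
Expression of each member in CPM after TMM scaling (vertical axes start at 0) in the WT, Het and KO libraries, with the libraries numbered 1 to 3 as circle, square and triangle and the mean ± SD of Het and KO beside them. KO libraries lie below all Het libraries in *Nova2* (57.5 to 67.1 against 75.9 to 77.4 CPM) and *Khdrbs2* (23.0 to 25.7 against 28.01 to 32.01 CPM), and the WT library of *Nova2* lies below its Het libraries.

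**Figure D2:**
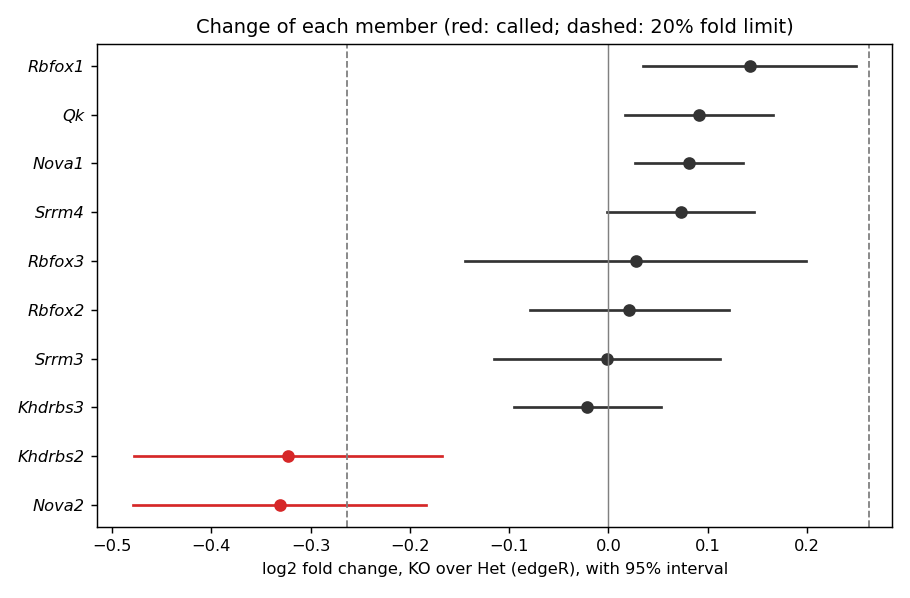
Log2 fold change of each member, KO over Het, with its 95% interval from edgeR, ordered by value, with dashed lines at the fold limit of 0.263 in either direction. The called *Nova2* and *Khdrbs2* (red) sit at -0.33 and -0.32, and the intervals of the other 8 members stay between the dashed lines.

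The Nova proteins bind YCAY clusters in RNA through KH domains and control exons of synaptic transcripts. *Nova2* (ENSMUSG00000030411.15, chromosome 7, 18925888 to 18965319 of GRCm38) was at 69.0 CPM in WT, at 77.4, 75.9 and 76.2 CPM across Het1, Het2 and Het3, and at 57.8, 67.1 and 57.5 CPM across KO1, KO2 and KO3. All KO libraries were below all Het libraries, and KO2, the library with least *Ptbp1*, had the highest *Nova2* of the KO group. The Het mean was 76.5 ± 0.822 and the KO mean 60.8 ± 5.48 CPM (± SD over 3 libraries), and *Nova2* fell by 0.33 on the log2 scale (SE 0.0618, adjusted p = 0.0232, edgeR). The WT library was below all Het libraries and above all KO libraries, so the Het mean was 111% of WT and the KO mean 88.2% of it. The call was lost without Het1 (adjusted p = 0.0520, edgeR), Het2 (0.0852), Het3 (0.0804) or KO1 (0.0519), while the log2 fold change stayed between -0.41 and -0.29.

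*Nova1* (ENSMUSG00000021047.6, chromosome 12, 46694517 to 46818929) went the other way by a small amount. It was at 65.1 CPM in WT, at 64.0, 64.1 and 64.2 CPM in the Het libraries and at 67.5, 67.8 and 68.3 CPM in the KO libraries. These groups were tight and did not overlap, with a log2 fold change of 0.08 (95% interval 0.03 to 0.14, adjusted p = 0.0674, edgeR), which did not pass. Within each library, the log2 ratio of *Nova2* to *Nova1* counts does not depend on scaling, and it was 0.08 in WT, 0.27, 0.24 and 0.25 across Het1, Het2 and Het3 and -0.22, -0.01 and -0.25 across KO1, KO2 and KO3. The mean differed by -0.42 between KO and Het (exact permutation test, two-sided, p = 0.1, the smallest that 3 against 3 libraries can give, and 0.2 adjusted over the 6 pairs compared). Per kb of exon, *Nova2* made up 55.5 ± 0.298% of the Nova RNA in Het and 48.3 ± 2.23% in KO (SD, n = 3 each), with 52.6% in the WT library.

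Rbfox proteins recognise UGCAUG with an RNA recognition motif domain, and Rbfox3 is the antigen NeuN of mature neurons. *Rbfox2* (ENSMUSG00000033565.16, chromosome 15, 77078990 to 77307004), which is also used outside neurons, was at 400.4 CPM in WT, at 389.7, 396 and 390.0 CPM across Het1, Het2 and Het3 and at 376, 413 and 404 CPM across KO1, KO2 and KO3. The Het and KO libraries overlapped (log2 fold change 0.02, 95% interval -0.08 to 0.12, adjusted p = 0.767, edgeR). *Rbfox3* (ENSMUSG00000025576.17, chromosome 11, 118489762 to 118911597) was at 31.1 CPM in WT, at 33.9, 30.1 and 28.9 CPM across Het1, Het2 and Het3 and at 31.9, 33.3 and 29.5 CPM across KO1, KO2 and KO3. Here too the groups overlapped, with a log2 fold change of 0.03 and the widest interval of the 8 uncalled members, -0.14 to 0.20 (adjusted p = 0.826, edgeR).

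*Rbfox1* (ENSMUSG00000008658.15, chromosome 16, 5885355 to 7411526), a neuronal and muscle regulator, had the largest positive difference of the 10. It was at 27.2 CPM in WT, at 28.7, 27.5 and 27.0 CPM across Het1, Het2 and Het3 and at 30.6, 31.9 and 29.3 CPM across KO1, KO2 and KO3. All KO libraries were above all Het libraries, but the log2 fold change of 0.14 (95% interval 0.03 to 0.25, adjusted p = 0.0898, edgeR) did not pass. Het1, the library with most muscle and pigmented cell RNA, was the highest of the Het libraries in *Rbfox1*, as it was in *Rbfox3*, *Nova2* and *Srrm3*. It was the lowest of them in *Nova1*, *Rbfox2*, *Khdrbs2*, *Khdrbs3* and *Qk*. Without Het1 the log2 fold change of *Rbfox1* was 0.17 (adjusted p = 0.0984, edgeR). The part of muscle RNA in these values was not tested. The log2 ratio of *Rbfox3* to *Rbfox1* counts was 0.24, 0.13 and 0.10 across Het1, Het2 and Het3 and 0.06, 0.06 and 0.01 across KO1, KO2 and KO3, a difference of -0.11 (exact permutation p = 0.1, adjusted 0.2). For *Rbfox2* to *Rbfox1* the difference was -0.12 (exact permutation p = 0.2, adjusted 0.3), and the libraries overlapped.

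Srrm3 and Srrm4, the latter also called nSR100, are serine- and arginine-rich proteins that promote the inclusion of microexons, the very short exons of neuronal transcripts. *Srrm4* (ENSMUSG00000063919.10, chromosome 5, 116439275 to 116591817) was at 128 CPM in WT, at 122, 122 and 120.2 CPM across Het1, Het2 and Het3 and at 126, 132 and 125 CPM across KO1, KO2 and KO3. The KO libraries were above the Het libraries by a narrow margin, and the WT library lay among the KO values. The log2 fold change was 0.07 (95% interval -0.00101 to 0.15, adjusted p = 0.173, edgeR). *Srrm3* (ENSMUSG00000039860.19, chromosome 5, 135806890 to 135874772) was at 47.7 CPM in WT, at 48.3, 44.5 and 45.3 CPM across Het1, Het2 and Het3 and at 45.9, 48.3 and 43.8 CPM across KO1, KO2 and KO3. Its groups overlapped, with a log2 fold change of -0.0013 (95% interval -0.11 to 0.11, adjusted p = 0.989, edgeR). The ratio of *Srrm4* to *Srrm3* differed by 0.07 on the log2 scale (exact permutation p = 0.3, adjusted 0.36).

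*Srrm4os*, an antisense transcript at the end of *Srrm4* (chromosome 5, 116438720 to 116465487), overlaps that gene on the opposite strand. It was at 1.13 CPM in WT, at 1.05, 0.982 and 0.712 CPM across Het1, Het2 and Het3 and at 1.21, 2.24 and 2.30 CPM across KO1, KO2 and KO3. The KO libraries were above the Het libraries, with KO1 close to WT. KO exceeded Het by 1.06 on the log2 scale (SE 0.286, adjusted p = 0.0607, edgeR), which did not pass, although it did by DESeq2 (adjusted p = 0.00616), with at least 10 counts required in every library (adjusted p = 0.0492, edgeR) and without KO1 (adjusted p = 0.0238, edgeR). The counting does not state strand, so its 108 to 306 counts and those of *Srrm4* cannot be told apart where their exons overlap. Of 21 annotated genes that overlap a member, 6 passed the expression filter, and 0 of these were called by edgeR (7.22% of all genes tested).

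STAR proteins bind RNA through a KH domain with flanking regions. Khdrbs2 and Khdrbs3, also called SLM1 and SLM2, control an exon of the neurexins, and Quaking is known from myelin RNAs and is used in neural progenitors and glia. *Khdrbs2* (ENSMUSG00000026058.11, chromosome 1, 32172714 to 32658568) was at 33.2 CPM in WT, at 28.01, 32.01 and 30.4 CPM across Het1, Het2 and Het3, and at 23.0, 23.6 and 25.7 CPM across KO1, KO2 and KO3. The order was WT above Het above KO with no overlap, and the Het mean was 90.9% and the KO mean 72.7% of the WT value, which has no replicate. The Het mean was 30.1 ± 2.01 and the KO mean 24.1 ± 1.40 CPM (± SD over 3 libraries), and *Khdrbs2* fell by 0.32 on the log2 scale (SE 0.0650, adjusted p = 0.0282, edgeR). The call was lost without Het2 (adjusted p = 0.0929, edgeR), Het3 (0.0986), KO1 (0.0628) or KO2 (0.0951), with log2 fold changes between -0.37 and -0.28 over all left-out libraries.

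*Khdrbs3* (ENSMUSG00000022332.7, chromosome 15, 68928420 to 69101211) had Het and KO libraries that overlapped. It was at 228 CPM in WT, at 207, 217 and 209 CPM across Het1, Het2 and Het3 and at 209, 205 and 209 CPM across KO1, KO2 and KO3, with a log2 fold change of -0.02 (95% interval -0.10 to 0.05, adjusted p = 0.680, edgeR). The log2 ratio of *Khdrbs3* to *Khdrbs2* counts was 2.78 in WT, 2.88, 2.76 and 2.78 in the Het libraries and 3.18, 3.11 and 3.03 in the KO libraries. The KO ratios were all above the Het ratios, by 0.30 on average (exact permutation p = 0.1, adjusted 0.2). *Qk* (ENSMUSG00000062078.14, chromosome 17, 10202601 to 10319854) was at 331 CPM in WT, at 326, 342 and 333 CPM across Het1, Het2 and Het3 and at 359, 354 and 353 CPM across KO1, KO2 and KO3. The KO libraries were above all others, but the log2 fold change of 0.09 (95% interval 0.02 to 0.17, adjusted p = 0.110, edgeR) did not pass. DESeq2 gave *Qk* an adjusted p of 0.0345 at a fold change below the limit.

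**Figure D3:**
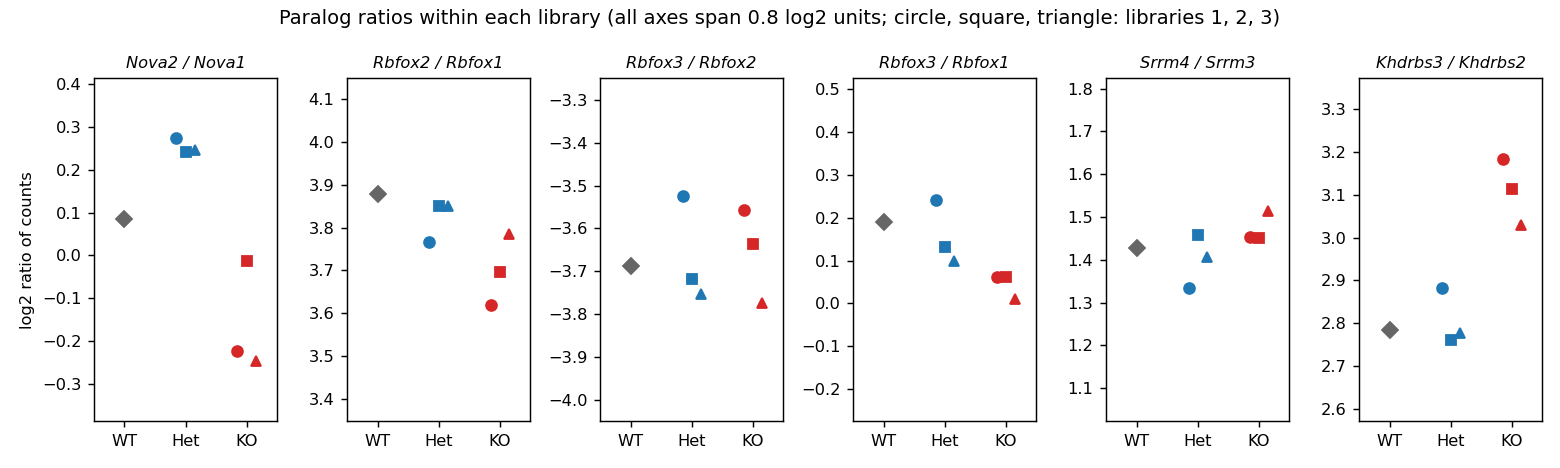
Log2 ratio of the counts of paralogs within each library, for the 6 pairs compared, with axes that all span 0.8 log2 units and libraries 1 to 3 as circle, square and triangle. The Het and KO libraries separate in *Nova2* to *Nova1*, *Rbfox3* to *Rbfox1* and *Khdrbs3* to *Khdrbs2*, with differences of -0.42, -0.11 and 0.30.

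In 6 of the 10 members no KO value lay within the Het range and the groups stood apart, with *Nova2* and *Khdrbs2* lower and *Nova1*, *Rbfox1*, *Srrm4* and *Qk* higher in KO. Over all genes tested this held for 36.3% (17.7% lower and 18.6% higher), and among genes above 20 CPM for 43.4%. The median size of the log2 fold change was 0.08 in the members and 0.08 in genes above 20 CPM. Against WT, the Het means of the members ranged from 90.9% (*Khdrbs2*) to 111% (*Nova2*), and the KO means of the 8 uncalled members from 91.0% (*Khdrbs3*) to 112% (*Rbfox1*). WT lay within the range of the Het libraries in 4 members, above it in 5 and below it in *Nova2* alone.

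Levels between genes were compared as CPM per kb of annotated exon. *Khdrbs3* had the highest, at a median of 57.0 over the 7 libraries, followed by *Rbfox2* at 48.7, *Qk* at 24.0 and *Srrm4* at 14.4. Each of these was apart from its neighbours in all libraries. *Nova2* (8.24), *Nova1* (7.44), *Srrm3* (7.16) and *Rbfox1* (6.51) followed, and each overlapped the next in this order. In the Het libraries *Nova2* was above *Nova1*, and in KO1 and KO3 it was below. *Rbfox3* was lower, at 5.34, and *Khdrbs2* lowest, at 2.72 CPM per kb. Within families, *Rbfox2* made up 78.8% to 81.2% of the Rbfox RNA per kb over the libraries and *Srrm4* 65.0% to 67.8% of the *Srrm3* and *Srrm4* RNA.

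**Figure D4:**
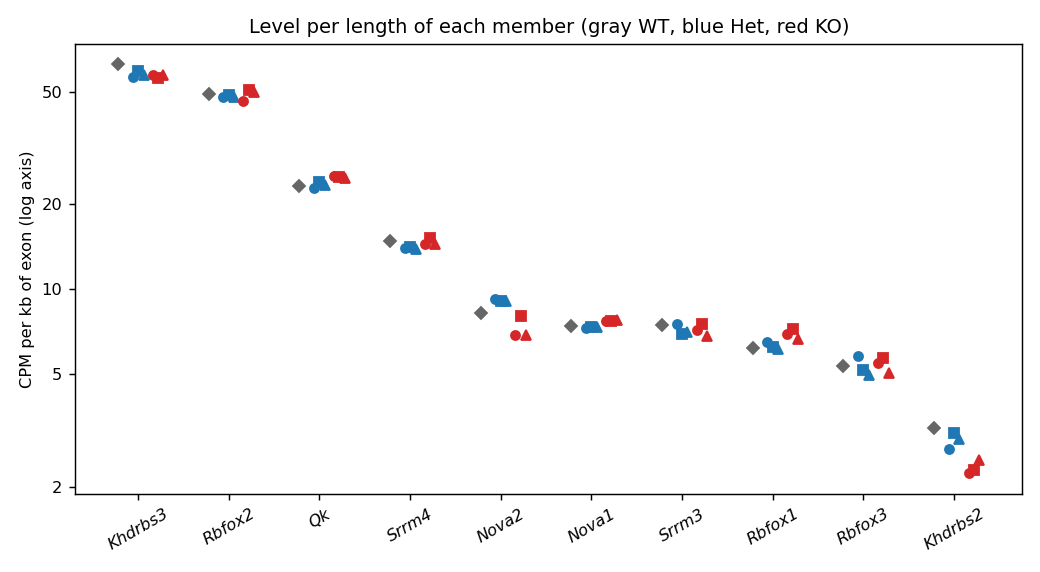
CPM per kb of annotated exon on a log axis for each member, ordered by its median over the 7 libraries, with WT in gray, Het in blue and KO in red. The medians run from 57.0 for *Khdrbs3* to 2.72 for *Khdrbs2*, and *Nova2*, *Nova1*, *Srrm3* and *Rbfox1* overlap.

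The sequences before the start sites of the called members are shown because these genes moved in the same direction. They are the 250 bases upstream, from RefSeq on GRCm38.p6, plus strand, at chr7:18925638-18925887 and chr1:32172472-32172721, with GC boxes (GGGCGG on either strand) in capitals.
Nova2: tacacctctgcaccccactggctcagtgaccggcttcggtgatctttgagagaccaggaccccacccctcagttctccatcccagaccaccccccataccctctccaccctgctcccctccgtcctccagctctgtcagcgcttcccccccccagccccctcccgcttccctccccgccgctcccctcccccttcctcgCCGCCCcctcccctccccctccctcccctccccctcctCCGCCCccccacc
Khdrbs2: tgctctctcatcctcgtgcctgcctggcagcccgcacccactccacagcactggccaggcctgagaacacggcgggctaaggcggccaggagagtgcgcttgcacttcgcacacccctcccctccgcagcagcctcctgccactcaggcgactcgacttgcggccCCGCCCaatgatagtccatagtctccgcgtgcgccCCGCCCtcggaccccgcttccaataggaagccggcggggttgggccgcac

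Both windows hold 2 GC boxes, and 32.7% of all 32851 RefSeq promoter windows of this length hold at least 1. They are GC-rich, at 71.2% for *Nova2* and 68.8% for *Khdrbs2*, against a median of 52.4% over all windows, and 7.83% and 10.98% of windows reach these values. The window of *Nova2* holds 10 CpG and that of *Khdrbs2* 21. Of the 9 windows that matched 8 of the members, 3 had a GC box, 5 an E-box (CANNTG), 0 a TATA box (TATAAA) and 0 the Crx and Otx2 core (TAATCC). Over all windows, 66.2% held the E-box, 12.4% the TATA box and 6.25% the TAATCC core. *Qk*, which was not called, had the third window with GC boxes, with 5 of them, 84.8% GC and 52 CpG. The window of *Srrm4*, also not called, was at 63.2% GC, and the other windows of uncalled members ran from 43.6% (*Srrm3*) to 52.8% (*Rbfox3*). These matches describe the letters only.

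Across the 7 libraries, the genes whose log2(CPM + 1) was most like *Nova2*, among 13749 others with at least 1 CPM, were *Prcp*, *Gm43719* and *Fam26e*, with Pearson correlations of 0.992, 0.988 and 0.986. For *Khdrbs2* they were *Six6*, *Mat2a* and *Lrrc34*, with 0.995, 0.995 and 0.994. *Six6*, a homeobox gene of the eye field and of progenitors, was at 254 CPM in WT, 229 to 247 CPM in Het and 204 to 214 CPM in KO. *Nova2* and *Khdrbs2* correlated with each other at only 0.680. These are descriptions over 7 points that share the genotype difference and were picked from all genes compared.

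Summed markers of cell types were also compared between these libraries. The Het and KO ranges overlapped in the progenitor and oligodendrocyte lineage lists and stood apart in the other lists given here. Ganglion cell genes summed to 2606 CPM in WT, to 2657 to 2779 CPM in Het and to 2441, 2620 and 2317 CPM across KO1, KO2 and KO3. Of the 11 genes, 9 had a negative log2 fold change (median -0.19). An unadjusted edgeR p below 0.05 was also found in 9, but not the same 9. It was found in *Nefl* and *Thy1*, which were higher in KO, and not in *Pou4f1* and *Nefm*, which were lower. *Isl1* was called lower and *Thy1* called higher. Pan-neuronal genes summed to 5707 to 5903 CPM in Het and 4984 to 5627 CPM in KO, with 3 of 10 called lower (*Tubb3*, *Elavl4* and *Gap43*) and *Map2* called higher. Amacrine and horizontal cell genes were at 549 to 584 CPM in Het and 686 to 736 CPM in KO. Of the 11, 4 were called higher (*Tfap2a*, *Tfap2b*, *Tfap2c* and *Gad1*), and *Tfap2b* alone went from 201 to 291 CPM on average. The log2 fold change was positive in 8 and negative in 3, among these *Onecut1* (-0.17) and *Onecut2* (-0.19). Photoreceptor genes were at 931 to 1034 CPM in Het and 1186 to 1359 CPM in KO (9 of 14 called higher). Progenitor genes were at 6374 to 6568 and 6407 to 6737 CPM. Of these 9, 1 was called higher (*Notch1*) and 2 lower (*Fgf15* and *Sfrp2*). Astrocyte genes were at 9.03 to 11.4 and 14.0 to 19.2 CPM (2 of 4 called higher, 1 lower), and oligodendrocyte lineage genes at 16.2 to 23.7 and 17.4 to 19.3 CPM. Over all genes tested, 4.01% were called higher and 3.21% lower, and 29.7% had an unadjusted edgeR p below 0.05. The part of cell composition in the values of *Nova2* and *Khdrbs2* was not tested.

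Transcripts known to be spliced by these regulators were followed as a list of 27 genes, all of them tested at the level of whole genes. In KO, 2 were called higher and 2 lower (14.8%, against 7.22% of all genes tested), with a median log2 fold change of 0.07. *Agrn*, the Nova target agrin, had a Het mean of 383 ± 32.4 and a KO mean of 269 ± 19.4 CPM (± SD over 3 libraries) and changed by -0.51 on the log2 scale (SE 0.0772, adjusted p = 0.0137, edgeR). *Cpeb4*, a translational regulator with a neuronal microexon, was at 64.7, 60.6 and 53.0 CPM across Het1, Het2 and Het3 and at 38.1, 43.9 and 47.3 CPM across KO1, KO2 and KO3, a log2 fold change of -0.46 (adjusted p = 0.0331, edgeR).

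*Cacna1b*, the N-type calcium channel subunit, rose from 128 ± 1.61 to 190 ± 27.9 CPM, with a log2 fold change of 0.57 (adjusted p = 0.0208, edgeR). In WT, *Cacna1b* was at 130.1 CPM, *Agrn* at 412 CPM and *Cpeb4* at 59.4 CPM, the first above the Het libraries by a small margin and the others within their range. *Nrxn3*, a neurexin that Khdrbs2 and Khdrbs3 act on, was higher in KO than in Het (log2 fold change 0.40, adjusted p = 0.0433, edgeR), at 32.1 to 34.7 CPM in Het and 38.0 to 49.5 CPM in KO. Its WT library, at 41.2 CPM, lay above all Het libraries and within the KO range, so that the Het mean was 81.7% and the KO mean 108% of WT. *Nrxn2* had a log2 fold change of 0.23 and did not pass. The most abundant of the list, *Ank2* and *Ank3*, had values of -0.04 and 0.00. *Rest*, the repressor of neuronal genes whose transcript Srrm4 splices, was at 47.2 ± 3.88 CPM in Het and 47.8 ± 9.48 CPM in KO. Leaving out Het2 gave 0 calls in the list, Het3 and KO1 gave 2 each, and KO3 gave 8. *Agrn* was called in each of the left-out fits other than that without Het2, *Cacna1b* was lost without Het2, Het3 or KO2, *Cpeb4* without Het1, Het2, KO1 or KO2, and *Nrxn3* was kept without KO3 alone.

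**Figure D5:**
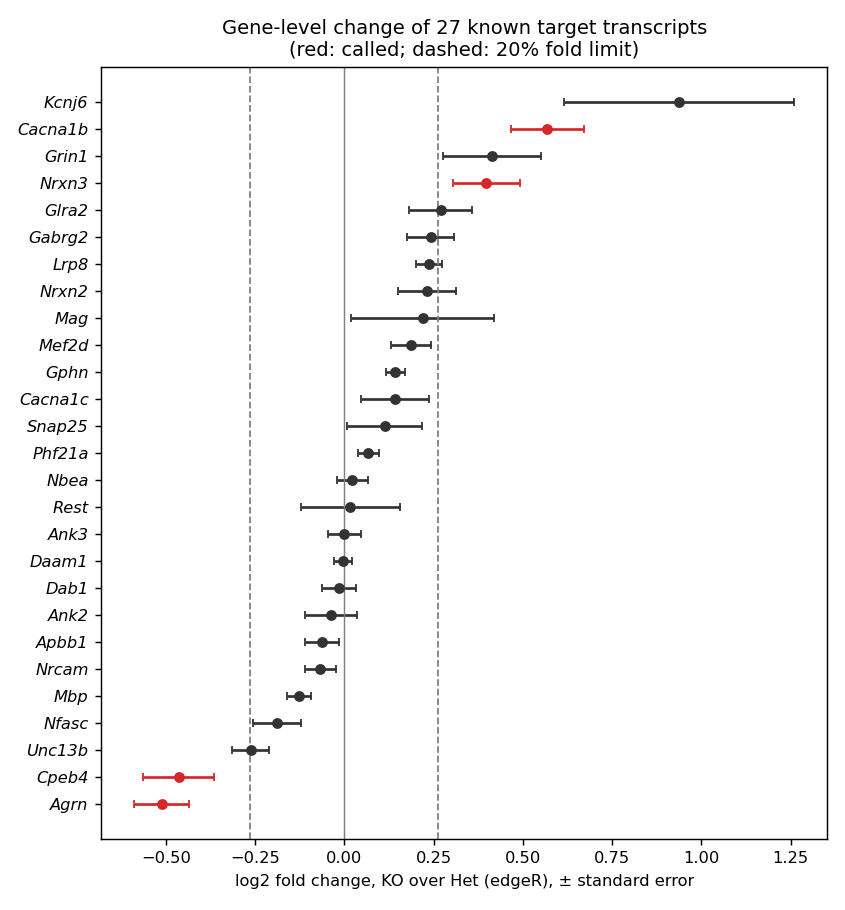
Log2 fold change, KO over Het, of 27 transcripts known to be spliced by the members, at the level of whole genes, ± standard error from edgeR, with dashed lines at the fold limit of 0.263. *Cacna1b* (0.57) and *Nrxn3* (0.40) were called higher and *Agrn* (-0.51) and *Cpeb4* (-0.46) lower (red), while *Kcnj6* (0.94) did not pass the test.

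The proteins that join Rbfox in the large assembly of splicing regulators (LASR) have 8 genes on the list used. Of these, 0 were called by edgeR and 0 by DESeq2, and 1 had an unadjusted edgeR p below 0.05, *Ddx5*, an RNA helicase, with a log2 fold change of -0.11 (adjusted p = 0.0945, edgeR). Over all genes tested, edgeR called 7.22% and DESeq2 10.3%, and 29.7% had an unadjusted edgeR p below 0.05. A list of 8 further genes held splicing genes, among them relatives of the members, and antisense transcripts such as *Srrm4os*. Of the 8, 6 had counts and were tested, and *Srrm4os* is given above. *Khdrbs1*, the relative of *Khdrbs2* known as Sam68, had a log2 fold change of -0.08, *Srrm1* of -0.06, *Srrm2* of -0.03 and *Sf1* of -0.11. *Rbm24*, a splicing regulator of muscle, was the 1 that was called, at 5.04 CPM in WT, 8.95, 7.17 and 6.95 CPM across Het1, Het2 and Het3 and 5.36 to 5.81 CPM in the 3 KO libraries. It was highest in Het1, the library with most muscle and pigmented cell RNA, and its log2 fold change went from -0.46 (adjusted p = 0.0484, edgeR) to -0.34 without that library (adjusted p = 0.0740, edgeR). The part of muscle RNA in this was not tested. The call of *Rbm24* was lost in all 6 fits that left out a library.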

How the data were processed

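RNA-seq was measured in 7 libraries of pooled E16 mouse retina. The authors aligned the reads to GRCm38 (mm10) with STAR within rMATS-turbo and summed reads over genes by featureCounts. The deposited values are raw whole-number counts. Versions, the strand setting and how reads with several alignments were handled are not given in the sources used here. The table holds 48440 genes and 0 other value columns. Library totals ranged from 120593979 to 171117305 counts.

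The count model was that of edgeR 4.0.16 (R 4.3.3). The filter was filterByExpr on genotype (20019 genes kept), scaling was by TMM (factors 0.988 to 1.03), and all 7 libraries entered one quasi-likelihood fit with a mean per genotype and no replicate block, from which KO was contrasted with Het. The single WT library has no error. Benjamini-Hochberg adjustment ran over all genes tested. Standard errors are the log2 fold change over the square root of F, and 95% intervals use the test's degrees of freedom. The fit was also run on simulated counts. These had a smaller dispersion than the common dispersion of the data (0.0460) and larger changes than those of the called members. That run therefore does not show how well changes of the members' size are found. Ratios of paralogs were compared by exact permutation (SciPy 1.17.1). Genes were named as members, overlapping genes that passed the filter, called or most abundant genes of a list, and the 3 genes most correlated with a called member. The members and lists were chosen with earlier results of these data known. A few genes of these lists are not reported here and enter no count or sum over a list. Lengths and coordinates are those of GENCODE M21 on GRCm38, matched by identifier, while the counting used release M10. Replicates were not copies, with a chi-square per degree of freedom of 13.0 to 49.4 between pairs.

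Alternatives were DESeq2 1.42.0, RLE and upper-quartile scaling, other filters, a fit without WT, the replicate block, left-out libraries, adjusted p alone and glmTreat. The background over genes above 20 CPM and the promoter motifs were chosen after seeing the data.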

Additional observations from a re-analysis of the deposited data

How the results depend on the processing

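Over 15 alternatives, *Nova2* kept its sign, at -0.41 to -0.29 on the log2 scale, and was called in 10, and *Khdrbs2* stayed lower, at -0.37 to -0.28, and was called in 10. These 10 include adjusted p alone, which drops the fold limit from the main fit and so could not lose a call. Adjusted p alone and glmTreat hold the log2 fold changes of the main fit, so their sign was fixed. The 5 that lost each call were 4 fits that left out a library, given with each gene, and glmTreat (adjusted p = 0.472 and 0.543). The number of members called lower was 0 to 2 over the left-out libraries and 0 by glmTreat, which tests against the fold limit itself, and the number called higher was 0 in all 15. Over all genes, 1445 were called, 386 to 1673 over the left-out libraries, 2221 by adjusted p alone and 217 by glmTreat. In the list of spliced transcripts, 4 were called, 0 to 8 over the left-out libraries, 7 by DESeq2, 7 by adjusted p alone and 0 by glmTreat. In the list with *Rbm24*, 1 was called, 0 to 1 over the left-out libraries, 2 by DESeq2, 2 with at least 10 counts in every library, and 0 with upper-quartile scaling, no filter, the replicate block or glmTreat. The LASR list had 0 in all 15.

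The sign of near-zero values changed. *Srrm3* went from -0.0013 to 0.0010 with upper-quartile scaling, 0.0018 with at least 10 counts in every library, 0.00055 with the 6 libraries alone, 0.00035 with the replicate block and -0.0376 to 0.0351 over the left-out libraries. *Rbfox2* ran from -0.0079 to 0.0610, *Rbfox3* from -0.0195 to 0.0966, and the ratio of *Rbfox3* to *Rbfox2*, 0.0090 with all libraries, from -0.0401 to 0.0796, over the left-out libraries. The causes were not tested. Same-numbered Het and KO libraries correlated in their deviations at -0.11, 0.27 and 0.05, and 3 of 6 libraries correlated best with their own number. With 3 libraries per genotype, these values cannot decide whether the numbers pair them. With the replicate block, 1268 genes were called, and *Nova2* (adjusted p = 0.0359, edgeR) and *Khdrbs2* (0.0355) among them. Counting error was at most 1.81% of a member's value in a library.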
